A study of Mus musculus with 12 samples.

Results

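Endothelial cells line the vessels of the brain, and the 10 genes described here, Cdh5, Pecam1, Cldn5, Kdr, Flt1, Tek, Tie1, Eng, Slco1c1 and Abcb1a, are among their defining transcripts. They were chosen by symbol, as 3 genes of cell junctions, 5 genes of receptors and 2 genes of transporters, with the transcript of highest mean standing for a gene. All 10 were found among the 23256 genes of the table and were detected in every library, and all 10 passed the filter on low values described below. The libraries came from the paraventricular nucleus of the hypothalamus (PVN), a densely vascularised nucleus that starts the hormonal stress response, taken from male mice 18 to 20 weeks old. The miR group (replicates 1 to 6) consisted of 6 animals that had received, as zygotes, 9 microRNA mimics together, namely miR-29c, miR-32, miR-30c, miR-30a, miR-375, miR-532-3p, miR-204, miR-193-5p and miR-698, at 0.11 ng/uL each and 1 ng/uL in total in DPBS. The PBS group (replicates 7 to 12) consisted of 6 animals injected at the same stage with DPBS alone. Both groups were of the C57/Bl6:129S6/SvEvTac hybrid strain and were carried by surrogate CD1 dams, so injection and embryo transfer were common to both. The labels give neither litter nor injection session, and a punch holds neurons and glia beside the vessels. In such tissue, fewer endothelial cells and less RNA per endothelial cell cannot be told apart.

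Brain endothelial cells form the blood-brain barrier. VE-cadherin (Cdh5) and PECAM-1 hold neighbouring cells together at adherens and lateral contacts, and claudin-5 (Cldn5) seals the tight junctions between them. Vascular endothelial growth factor acts through KDR (VEGFR2), with FLT1 (VEGFR1) binding the same ligand, angiopoietins act through TEK (TIE2) with its orphan partner TIE1, and endoglin (Eng) is a co-receptor for ligands of the TGF-beta family. At the barrier itself, P-glycoprotein (Abcb1a) returns many drugs to the blood and OATP1C1 (Slco1c1) carries thyroid hormone into the brain.

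Levels are given as the authors' RPKM values, that is, reads per kilobase of a transcript's length and per M reads of the library, which allow genes to be compared per length. The depth of a library, inferred from the smallest steps in its values, lay between 22.8 and 45.1 M reads in miR and between 27.6 and 38.1 M reads in PBS. PBS replicates 8, 9, 10 and 12 stood apart from the other 8 libraries in RNAs that are retained in the nucleus. Meg3, an imprinted noncoding RNA, lay at 49.9 to 68.1 RPKM in miR and at 50.6 and 58.0 RPKM in PBS replicates 7 and 11, against 158, 316, 190 and 245 RPKM in PBS replicates 8, 9, 10 and 12. Libraries also differed in their balance of GC-rich and GC-poor transcripts. The median log2 deviation of the GC-richest quintile of genes minus that of the GC-poorest quintile ran from -0.31 to 0.08 in miR, against -0.09 to 0.24 in PBS. Members were therefore also fitted with a nuclear RNA score as covariate, after GC correction, and without the libraries concerned. The score averages 7 nuclear-retained RNA genes, all of them lower in miR, so the covariate also takes up part of any group difference. With it, 0.46% of all tested genes were lower in miR at an unadjusted p below 0.05 in limma, against 11.1% without it. Leaving out PBS replicates 8, 9, 10 and 12 gave 0.35%, with PBS replicates 7 and 11 alone left in that group. Summed over 11 markers, neuronal transcripts of the region (Oxt, Avp, Crh and others) reached 3022 to 6420 RPKM in miR and 3276 to 6822 RPKM in PBS. Oxt and Avp, at means of 2675 and 919 RPKM over all 12 libraries, made up most of this sum. Sim1 and Rbfox3, at 8.05 and 24.4 RPKM, added little, so the sum is not a measure of neuronal content as a whole.

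Over all 12 libraries Cldn5 had the highest mean level of the 10, at 12.2 RPKM, followed by Slco1c1 at 9.28, Flt1 at 5.07, Abcb1a at 4.17, Pecam1 at 3.84, Eng at 3.45, Tek at 2.05, Cdh5 at 1.95, Tie1 at 1.89 and Kdr at 1.49 RPKM. Against the 13273 tested genes, Cldn5 stood above 59.6% and Kdr above 5.39%. Cldn5 exceeded Slco1c1 in 10 of 12 libraries. Slco1c1 lay above Flt1, and Eng above Tek, with no overlap of their ranges over libraries. Tek, Cdh5 and Tie1 could not be put in order: Tek exceeded Cdh5 in 6 of 12 libraries and Cdh5 exceeded Tie1 in 7. Per length, FLT1 transcripts outnumbered those of KDR in all 12 libraries, by a ratio of 3.13 to 3.74 in miR and 2.90 to 4.22 in PBS. At these levels a member rested on about 147 reads (Cdh5, in the library with fewest) to about 1598 reads (Flt1, in the library with most).

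**Figure D1:**
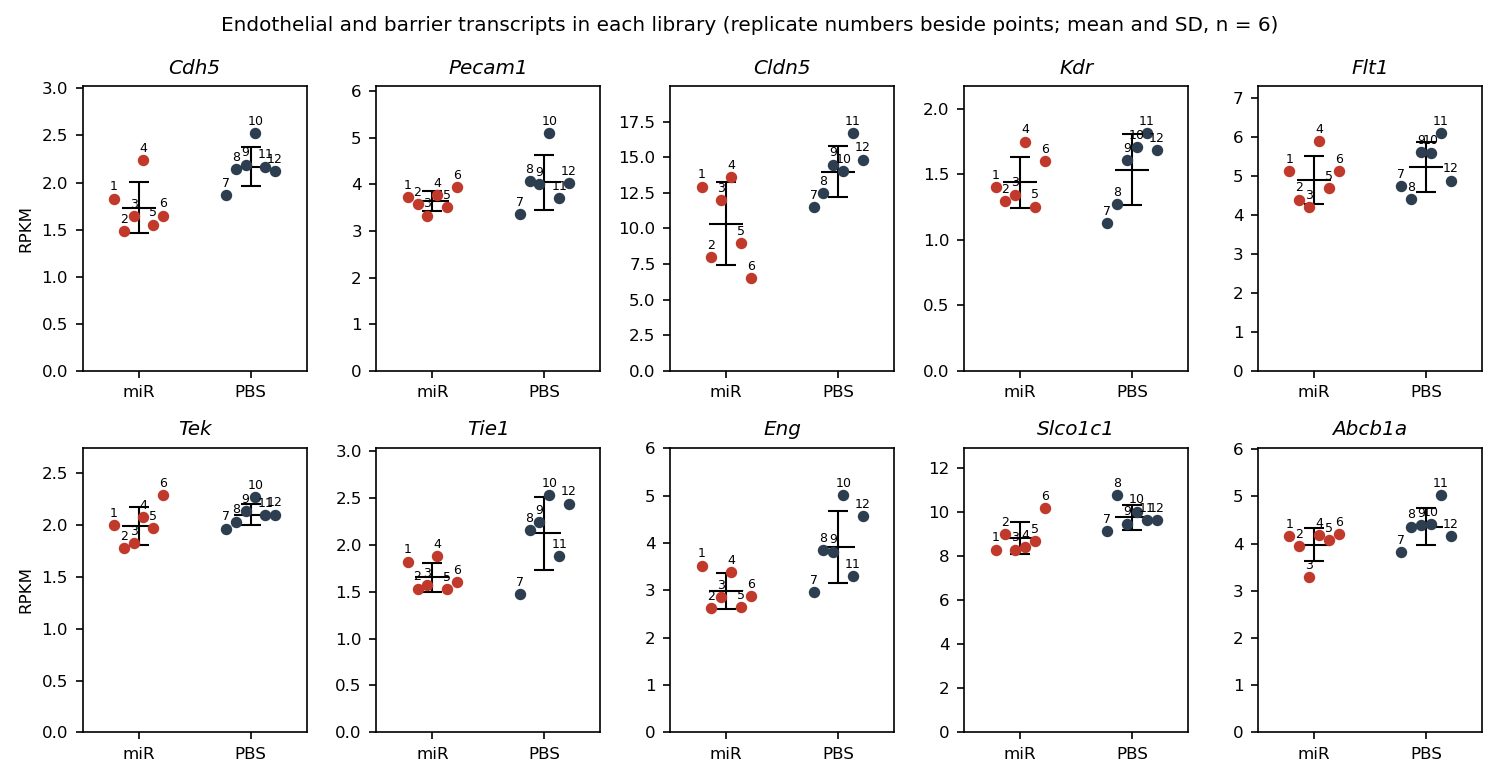
Level of each of the 10 genes in RPKM (y axis, from 0) in the 6 miR and the 6 PBS libraries, with replicate numbers beside the points and the mean with SD beside each group. In every panel the ranges of the groups overlap, and PBS replicate 7 lies at the low end of PBS for Cdh5, Pecam1, Kdr, Tek, Tie1, Eng, Cldn5, Slco1c1 and Abcb1a.

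The 10 genes lie on chromosomes 2, 4, 5, 6, 8, 11 and 16, with Tek and Tie1 both on chromosome 4 and Kdr, Flt1 and Abcb1a all on chromosome 5, far from each other. Upstream sequence was matched for 8 of the 10 in the RefSeq promoter table (build GRCm38.p6), all but Cdh5 and Pecam1. The 250 bases before the start were searched on both strands for GGAA, the core recognised by ETS factors, which are known regulators of endothelial genes, for the longer AGGAAG, which contains it, for GATAA and for TATAAA. The core GGAA was present in 7 of the 8 windows and in 93.4% of 32851 promoters of the same length. AGGAAG was present in 5 of the 8, against 29.5% of all. GATAA was present in 0 of the 8, against 22.6%, and TATAAA in Flt1 alone, against 12.4%. With GGAA or its reverse complement TTCC in capitals, the upstream windows follow of the VEGF receptor pair, of Tie1 and Cldn5 as GC-rich members and of the 2 transporters as GC-poor ones.
Kdr, chr5:75978456-75978705, minus strand: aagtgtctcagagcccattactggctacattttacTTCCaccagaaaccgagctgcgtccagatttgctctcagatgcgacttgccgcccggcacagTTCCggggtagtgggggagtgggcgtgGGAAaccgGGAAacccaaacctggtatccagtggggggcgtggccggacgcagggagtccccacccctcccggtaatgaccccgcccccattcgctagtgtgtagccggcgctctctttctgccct
Flt1, chr5:147726012-147726261, minus strand: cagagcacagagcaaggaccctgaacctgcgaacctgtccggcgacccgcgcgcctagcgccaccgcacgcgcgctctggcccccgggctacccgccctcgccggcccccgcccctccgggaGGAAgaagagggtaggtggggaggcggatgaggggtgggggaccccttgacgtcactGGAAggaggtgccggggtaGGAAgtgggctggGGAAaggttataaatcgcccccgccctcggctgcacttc
Tie1, chr4:118489850-118490099, minus strand: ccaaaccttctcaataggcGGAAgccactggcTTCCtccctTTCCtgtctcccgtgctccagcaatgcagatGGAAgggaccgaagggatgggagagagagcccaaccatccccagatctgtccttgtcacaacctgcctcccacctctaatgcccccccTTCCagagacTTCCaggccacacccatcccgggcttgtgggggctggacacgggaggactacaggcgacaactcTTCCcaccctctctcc
Cldn5, chr16:18776597-18776846, plus strand: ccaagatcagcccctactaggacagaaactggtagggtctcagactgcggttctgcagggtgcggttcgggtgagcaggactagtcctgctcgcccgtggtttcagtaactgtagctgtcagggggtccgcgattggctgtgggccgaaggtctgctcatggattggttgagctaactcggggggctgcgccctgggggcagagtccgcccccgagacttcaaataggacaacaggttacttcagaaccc
Slco1c1, chr6:141524104-141524353, plus strand: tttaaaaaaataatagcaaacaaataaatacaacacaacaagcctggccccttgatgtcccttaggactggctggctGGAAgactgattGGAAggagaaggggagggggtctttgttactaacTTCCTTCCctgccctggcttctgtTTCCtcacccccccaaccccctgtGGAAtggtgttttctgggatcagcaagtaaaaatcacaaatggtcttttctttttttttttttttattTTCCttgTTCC
Abcb1a, chr5:8566841-8567090, plus strand: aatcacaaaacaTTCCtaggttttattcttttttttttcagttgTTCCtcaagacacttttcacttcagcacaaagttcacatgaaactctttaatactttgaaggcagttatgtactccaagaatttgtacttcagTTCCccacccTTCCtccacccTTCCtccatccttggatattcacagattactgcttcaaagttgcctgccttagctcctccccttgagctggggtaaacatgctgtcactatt
Slco1c1 held 8 such cores, Tie1 7, Abcb1a 5, Kdr and Flt1 4 each and Cldn5 0, where the median of all promoters was 3. GC content was 42.8% and 40.4% in the windows of Slco1c1 and Abcb1a, against 60.4% in Tie1 and 59.6% in Cldn5. The windows of Flt1 (70.4%), Eng (62.4%) and Kdr (61.6%) were the GC-richest of the 8. Among transcripts, Cldn5 (60.5% GC), Tie1 (58.2%) and Eng (57.2%) were the GC-richest, Flt1 (50.5%) and Kdr (49.4%) lay between, and Slco1c1 (43.1%) and Abcb1a (45.2%) were the GC-poorest of the 10.

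Each of the 10 genes had a lower mean in miR than in PBS, with differences of -4.24% (Kdr) to -27.2% (Cldn5) on the scale analysed, and none passed the test over all genes. The test was limma's, for genes that averaged 1 RPKM or more, on log2(RPKM + 0.5), where a log2 difference understates the change of low genes, with p-values adjusted over all 13273 of them. At an adjusted p below 0.05, 0 of 10 members and 0% of all tested genes were called. At an unadjusted p below 0.05, 5 members (Cdh5, Cldn5, Eng, Tie1 and Slco1c1) were lower in miR, where 11.1% of all tested genes were lower and 9.12% higher at that level. A lower value in miR, without regard to size, was seen in 47.1% of all tested genes. In each of the 10 genes at least 5 of the 6 miR libraries lay below the PBS median, which held for 27.4% of all tested genes. In 0 of the 10 did every miR library lie below every PBS library, as 0.226% of all tested genes did. The median log2 difference was -0.13 over the 10 genes and 0.01 over all tested genes. The genes vary together (below) and were chosen with their direction known, so these counts are a description.

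Among the junction genes, Cldn5 (chromosome 16, mm9 18776940 to 18778355) ran from 6.49 through a median of 10.5 to 13.6 RPKM in miR, against 11.5 through 14.2 to 16.7 RPKM in PBS. The miR libraries divided into a high and a low set. Replicates 1, 3 and 4 had 12.9, 12.0 and 13.6 RPKM, within the PBS range, and replicates 2, 5 and 6 had 8.01, 8.97 and 6.49 RPKM, below every PBS library. The means were 10.3 RPKM (SD 2.91, n = 6) in miR and 14.0 RPKM (SD 1.82, n = 6) in PBS, and the log2 difference was -0.46 (SE 0.16, adjusted p = 0.178 in limma). Its coefficient of variation in miR, 28.1%, was the highest of the 10 genes in either group, where counting of reads alone gives about 4.27% and the median of all tested genes in miR was 7.97%. The 3 low libraries were also the 3 with the lowest balance of GC-rich over GC-poor transcripts, at -0.21, -0.31 and -0.24, and the 3 with the fewest reads in miR, at 26.9, 23.7 and 22.8 M. After GC correction they remained the lowest of the group, at 3.32, 3.42 and 3.06 on the log2 scale against 3.53 to 3.80 in the other 3 miR libraries, and the log2 difference between miR and PBS was -0.30 (adjusted p = 0.354 in limma).

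Cdh5 (chromosome 8, mm9 106625525 to 106668402) spanned 1.48 to 2.24 RPKM in miR, with a median of 1.65, and 1.87 to 2.52 RPKM in PBS, with a median of 2.16. Of the 6 miR libraries, 5 lay below every PBS library, and replicate 4 lay inside the PBS range. The log2 difference was -0.26 (SE 0.09, adjusted p = 0.174 in limma). It was nearly the same after GC correction, at -0.25. With the nuclear RNA score as covariate it was -0.20, with a wider error (SE 0.12, adjusted p = 0.9998 in limma). Pecam1 (chromosome 11, mm9 106515532 to 106576595) spanned 3.33 to 3.95 RPKM in miR and 3.36 to 5.09 RPKM in PBS, where replicate 10 gave the highest value. Medians were 3.65 and 4.02 RPKM in miR and PBS, and 4 PBS libraries lay above all miR libraries. These were replicates 8, 9, 10 and 12, in which Meg3 was high. The log2 difference was -0.13 (SE 0.08, adjusted p = 0.363 in limma), but 0.01 with the nuclear RNA score as covariate and 0.04 without those 4 libraries.

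Of the receptors, Eng and Tie1 had the larger differences. Eng (chromosome 2, mm9 32502115 to 32538189) ran from 2.63 to 3.52 RPKM in miR, with a median of 2.87, against 2.96 to 5.01 RPKM in PBS, with a median of 3.83. Tie1 (chromosome 4, mm9 118143796 to 118162454) ran from 1.52 to 1.88 RPKM in miR, with a median of 1.58, against 1.47 to 2.53 RPKM in PBS, with a median of 2.20. In both genes the 4 PBS libraries above all miR libraries were again replicates 8, 9, 10 and 12, while PBS replicates 7 and 11, at 2.96 and 3.30 RPKM of Eng and 1.47 and 1.88 RPKM of Tie1, lay within or below the miR range. For Eng the log2 difference was -0.33 (SE 0.11, adjusted p = 0.177 in limma), -0.23 after GC correction, and -0.10 with the nuclear RNA score as covariate. For Tie1 it was -0.27 (SE 0.10, adjusted p = 0.192 in limma), -0.15 after GC correction, and -0.03 with that covariate. Without PBS replicates 8, 9, 10 and 12 the differences were -0.06 and -0.01 (adjusted p = 0.99995 for each in limma), where 0% of all tested genes were called. Without PBS replicates 7 and 11 they were -0.46 and -0.40 (adjusted p = 0.00675 and 0.00420 in limma), where 23.4% of all tested genes were called. The part of nuclear RNA content in the differences of Eng, Tie1 and Pecam1 was not tested beyond these fits. The genes of the score were themselves lower in miR, so the fits do not separate it from the groups.

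The other receptors had the smallest differences of the 10 genes. Kdr (chromosome 5, mm9 76329299 to 76374453) lay between 1.25 and 1.75 RPKM in miR and between 1.13 and 1.81 RPKM in PBS, with medians of 1.37 and 1.64. PBS replicates 7 and 8 gave the lowest and the third lowest value of all 12 libraries, so the PBS values enclosed those of miR (log2 difference -0.06, SE 0.10, adjusted p = 0.739 in limma). Flt1 (chromosome 5, mm9 148373772 to 148537564) lay between 4.21 and 5.89 RPKM in miR and between 4.41 and 6.09 RPKM in PBS, with medians of 4.91 and 5.25 (log2 difference -0.08, SE 0.09, adjusted p = 0.598 in limma). Tek (chromosome 4, mm9 94405991 to 94541630) lay between 1.78 and 2.29 RPKM in miR and between 1.97 and 2.27 RPKM in PBS, with medians of 1.99 and 2.10 (log2 difference -0.06, SE 0.07, adjusted p = 0.576 in limma). Tek was the steadiest of the 10 genes in PBS, with a coefficient of variation of 4.91% where counting gives about 5.81%.

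Both transporters had lower means in miR, with differences of -9.50% (Slco1c1) and -7.97% (Abcb1a) on the scale analysed, log2(RPKM + 0.5). Slco1c1 (chromosome 6, mm9 141472907 to 141518698) ran from 8.29 through a median of 8.53 to 10.2 RPKM in miR, against 9.11 through 9.61 to 10.8 RPKM in PBS. In miR 5 of 6 libraries lay below every PBS library, and replicate 6 lay second of all 12. The log2 difference was -0.14 (SE 0.06, adjusted p = 0.207 in limma), and -0.24 after GC correction. Abcb1a (chromosome 5, mm9 8660092 to 8748570) ran from 3.28 through 4.12 to 4.20 RPKM in miR, against 3.81 through 4.38 to 5.03 RPKM in PBS. In PBS 4 of 6 libraries lay above all miR libraries, and miR replicate 3 was the lowest of the 12. The log2 difference was -0.12 (SE 0.07, adjusted p = 0.340 in limma), and -0.21 after GC correction. Abcb1a has a close paralogue in rodents, Abcb1b, with which reads could be shared. Abcb1b lay below the filter, at 0.524 RPKM (SD 0.0812, n = 6) in miR and 0.569 RPKM (SD 0.0771, n = 6) in PBS. Slco1c1 is also expressed by the choroid plexus, whose marker Ttr reached 0.245 to 0.676 RPKM in miR and 0.209 to 0.356 RPKM in PBS.

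**Figure D2:**
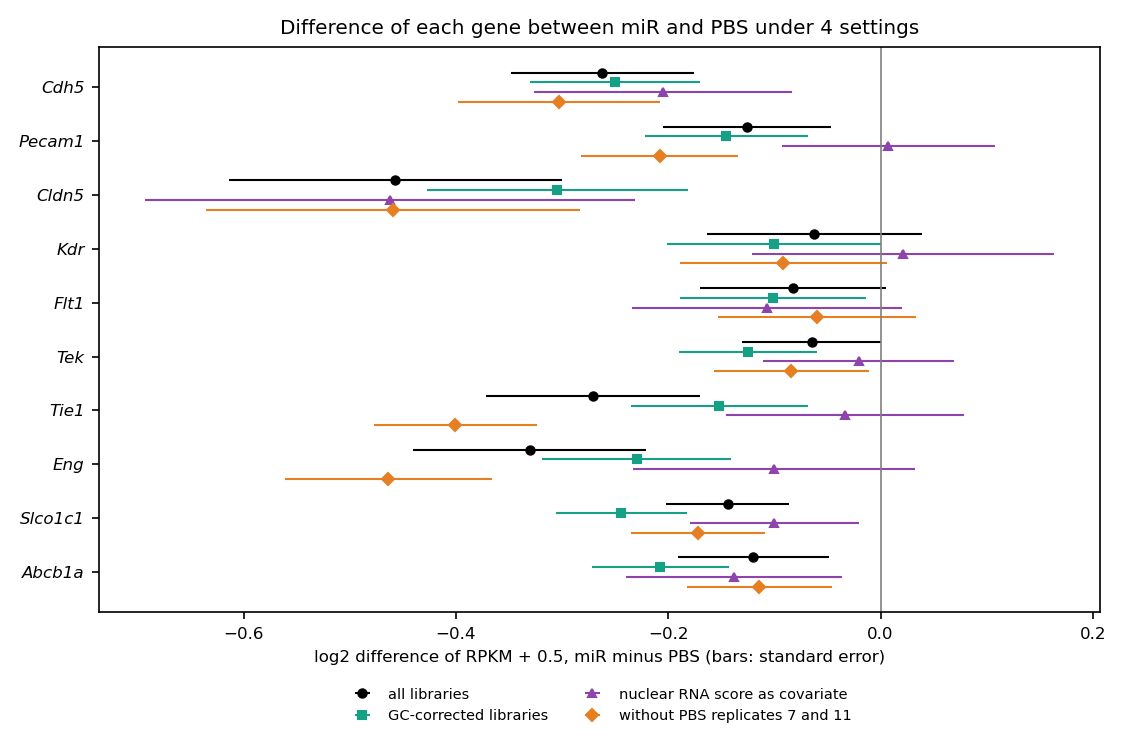
Log2 difference of each gene between miR and PBS (x axis, RPKM + 0.5, with standard error) in all libraries, after GC correction, with the nuclear RNA score as covariate and without PBS replicates 7 and 11. With the covariate Eng, Tie1 and Pecam1 lie at -0.10, -0.03 and 0.01, against -0.33, -0.27 and -0.13 in all libraries, while Cldn5 and Abcb1a lie at -0.46 and -0.14. The standard error of Cldn5 is 0.23 with the covariate, against 0.16 in all libraries without it.

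Which members passed the threshold depended on the libraries used. Without PBS replicate 7, Eng and Tie1 passed (adjusted p = 0.0396 and 0.0293 in limma), where 6.85% of all tested genes were called. Without PBS replicates 7 and 11, Cdh5 passed beside Eng and Tie1 (adjusted p = 0.0383 in limma), where 23.4% of all tested genes were called. With libraries weighted by their estimated quality, Cdh5, Eng, Tie1 and Slco1c1 passed (adjusted p = 0.0411, 0.0262, 0.0208 and 0.0198 in limma), where 22.8% of all tested genes were called. Cldn5, which had the largest difference of the 10 in all libraries, passed in none of these fits. PBS replicates 7 and 11 were singled out for their low nuclear RNA, and without them the groups differed more over all genes, so the members' calls are read against that call rate.

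The 10 genes varied together from library to library. After the mean of each group was subtracted, the median Pearson correlation over their 45 pairs was 0.48 across the 12 libraries, and 40 pairs were positive. Over all 88079628 pairs of tested genes the median was 0.018, with 51.6% positive. Medians of other lists were 0.25 in 190 pairs of further endothelial genes, 0.78 in 21 pairs of nuclear-retained RNA genes, 0.33 in 66 pairs of astrocyte markers, 0.37 in 45 pairs of mural markers and 0.40 in 55 pairs of microglial markers. In 21 pairs of choroid plexus markers the median was 0.44, close to that of the 10 genes. Positive pairs were 88.9% of the 45, 89.4% among astrocyte markers and 85.7% among choroid plexus markers. In the other lists they were 54.2% (Wnt pathway) to 100% (nuclear-retained RNA genes). The 8 junction and receptor genes had a median of 0.58 over 28 pairs, within miR alone 0.71 and within PBS alone 0.72. Libraries share depth and GC balance over all genes, and the correlations are given as a description. Of the 45 pairs, Eng and Tie1 had the highest, at 0.94 (0.97 within miR, 0.94 within PBS), and Cldn5 and Slco1c1 the lowest, at -0.68.

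For 5 pairs set by role, covariation was tested by 100000 permutations within groups, 2-sided, with adjustment over the 5. The pairs were chosen with earlier results of these data known, and the adjustment does not cover that choice. Nor do the p-values separate a pair from the depth and GC balance that libraries share over all genes. The VEGF receptors Kdr and Flt1 had r = 0.80 over 12 libraries (permutation p = 0.0032, adjusted p = 0.016) and Spearman's rho = 0.80 (permutation p = 0.00525, adjusted p = 0.0262). Leaving out PBS replicates 7 and 8, the libraries farthest from the median of Kdr, gave r = 0.77 (permutation p = 0.0199, adjusted p = 0.0498). The adjusted permutation p was above 0.05 without miR replicate 4 (r = 0.74, p = 0.0592), PBS replicate 10 (r = 0.79, p = 0.0523) or PBS replicate 11 (r = 0.76, p = 0.0584). Within miR r was 0.85 (exact permutation p = 0.0333, adjusted p = 0.167, n = 6) and within PBS 0.78 (exact permutation p = 0.0778, adjusted p = 0.130, n = 6). In the same test Cdh5 and Pecam1 had r = 0.61 (permutation p = 0.0196, adjusted p = 0.0490) and rho = 0.68 (permutation p = 0.0238, adjusted p = 0.0409), but r = 0.57 without miR replicate 4 and PBS replicate 10 (permutation p = 0.0996, adjusted p = 0.124). With 1 library left out, r for this pair lay between 0.47 and 0.78, and the adjusted p stayed below 0.05 only without miR replicate 3 or miR replicate 6. Within miR their r was 0.39 (exact permutation p = 0.468, adjusted p = 0.468, n = 6) and within PBS 0.94 (exact permutation p = 0.0361, adjusted p = 0.130, n = 6). The angiopoietin receptor pair Tek and Tie1 had r = 0.48 (permutation p = 0.0553, adjusted p = 0.0692) and rho = 0.63 (permutation p = 0.0245, adjusted p = 0.0409), and without miR replicates 2 and 6 r = 0.74 (permutation p = 0.0193, adjusted p = 0.0498). Cdh5 and Cldn5 had r = 0.63 (permutation p = 0.0497, adjusted p = 0.0692) and rho = 0.66 (permutation p = 0.0348, adjusted p = 0.0434), and r = 0.62 without miR replicate 4 and PBS replicate 10 (permutation p = 0.0838, adjusted p = 0.124). The transporters Slco1c1 and Abcb1a did not pass this test, at r = 0.34 (permutation p = 0.29, adjusted p = 0.29), rho = 0.31 (permutation p = 0.351, adjusted p = 0.351) and r = 0.39 without miR replicate 6 and PBS replicate 8 (permutation p = 0.302, adjusted p = 0.302).

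**Figure D3:**
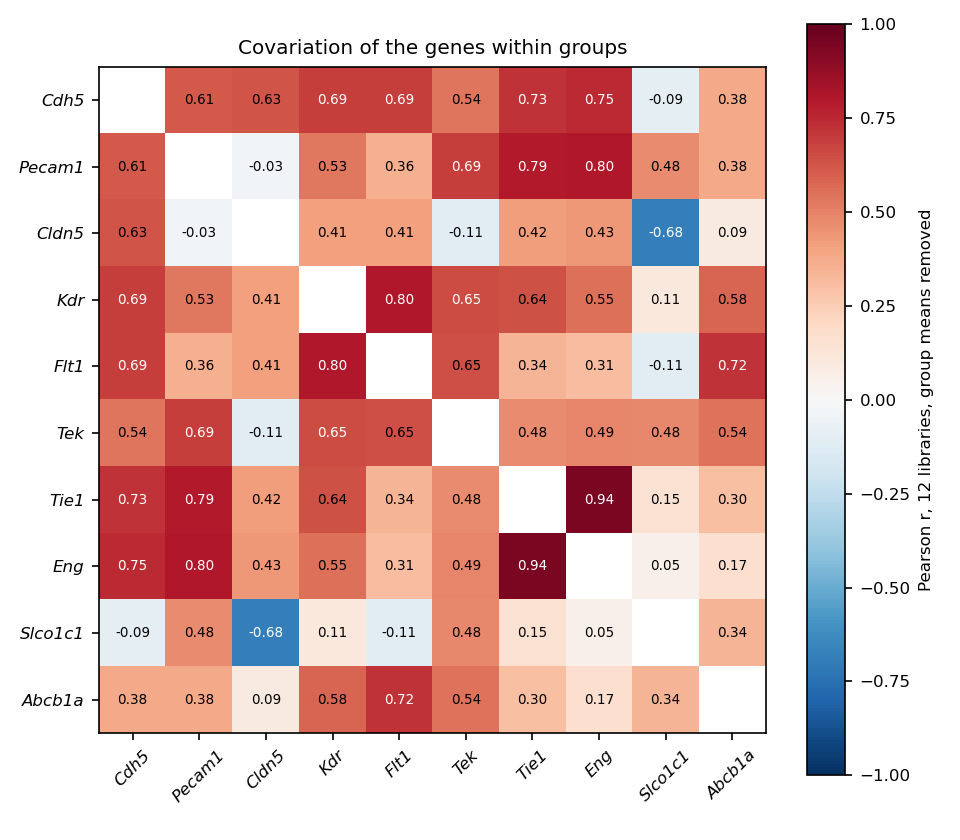
Pearson correlation of each pair of the 10 genes over 12 libraries after group means were removed (colour and printed value, -1 to 1). Pairs of receptors and junction genes have a median of 0.58, though Cldn5 lies at -0.03 with Pecam1 and -0.11 with Tek. The row of Slco1c1 runs from -0.68 with Cldn5 to 0.48 with Tek and Pecam1. That of Abcb1a runs from 0.09 with Cldn5 to 0.72 with Flt1.

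Transporters were next set against the junction and receptor genes within each library. On the log2 scale the mean of Slco1c1 and Abcb1a was 2.69 (SD 0.09, n = 6) in miR and 2.82 (SD 0.08, n = 6) in PBS, and the mean of the other 8 genes 1.77 (SD 0.13) in miR and 1.98 (SD 0.14) in PBS. Transporters minus the rest ran from 0.72 to 1.08 in miR, against 0.69 to 0.98 in PBS, with means of 0.91 and 0.84. The groups differed by 0.08, less than the spread between libraries of one group (pooled SD 0.14). After GC correction the groups differed by -0.05, with means of 0.85 in miR and 0.90 in PBS, so that no direction can be given for this balance. Over the 16 pairs of a transporter with a junction or receptor gene the median correlation was 0.23, with 13 positive. After GC correction it was 0.56, close to the 0.63 of the 28 pairs without transporters. Slco1c1 had the lowest median correlation with the other 9 genes, at 0.11. Abcb1a had correlations of 0.72 with Flt1, 0.58 with Kdr, 0.54 with Tek, 0.30 with Tie1 and 0.17 with Eng. The ratio of Slco1c1 to Cldn5 ranged from 0.617 to 1.56 in miR, with the highest values in replicates 2 and 6 (1.12 and 1.56), and from 0.577 to 0.862 in PBS. Within miR these genes had a correlation of -0.91, within PBS of -0.06, and over 12 GC-corrected libraries of -0.48.

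**Figure D4:**
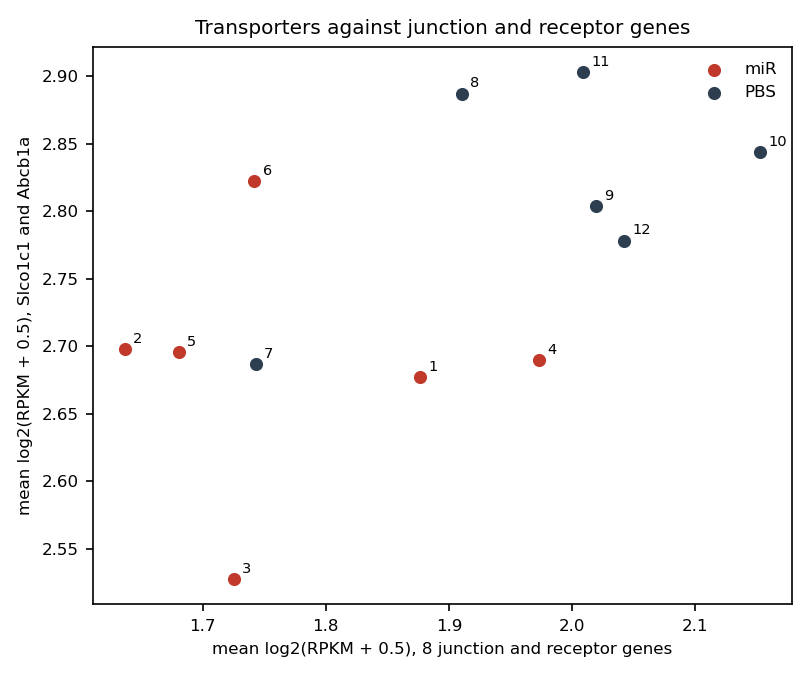
Mean log2(RPKM + 0.5) of Slco1c1 and Abcb1a (y axis) against that of the 8 junction and receptor genes (x axis) in each library, with replicate numbers beside the points. PBS replicate 7 lies among the miR libraries at 1.74 on the x axis and 2.69 on the y axis, and miR replicate 3 is lowest on the y axis at 2.53.

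As single libraries, PBS replicate 10 gave the highest value of all 12 in 4 of the 10 genes and PBS replicate 11 in 4, and miR replicate 3 gave the lowest in 4. PBS replicate 7 was among the 3 lowest in 5 genes, and miR replicate 4 among the 3 highest in 3. The sum of the 10 genes ranged from 37.6 to 47.2 RPKM in miR, against 41.9 to 53.2 RPKM in PBS. The depth was 34.8 M reads in miR replicate 3, second deepest of miR, 38.1 M in PBS replicate 10, 30.5 M in PBS replicate 11 and 27.6 M in PBS replicate 7, the shallowest of PBS. The part of depth in this order was not tested.

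Other genes of the vessel wall were taken from lists by function. Of all tested genes, 47.1% had a lower value in miR. At an unadjusted p below 0.05 in limma, 11.1% were lower and 9.12% higher. Genes of several lists vary together, so the counts that follow are a description. Of 32 further endothelial genes, 20 were tested, 19 with a lower and 1 with a higher value in miR. At an unadjusted p below 0.05, 5 were lower and 0 higher, and 0 passed the adjusted threshold. Their median log2 difference was -0.13, as over the 10 genes. Nos3, which encodes endothelial nitric oxide synthase, averaged 1.96 RPKM (SD 0.106, n = 6) in miR and 2.63 RPKM (SD 0.398, n = 6) in PBS (adjusted p = 0.174 in limma). It lay at 2.60 to 3.08 RPKM in PBS replicates 8, 9, 10 and 12. In PBS replicates 7 and 11 it lay at 2.10 and 2.26 RPKM, beside a miR maximum of 2.14 RPKM. Esam, an adhesion molecule of endothelial tight junctions, averaged 3.25 RPKM (SD 0.162) in miR and 4.60 RPKM (SD 1.25) in PBS (adjusted p = 0.177 in limma). The ETS factor gene Erg lay at 1.15 RPKM (SD 0.229) in miR and 1.39 RPKM (SD 0.183) in PBS, and Vwf, which encodes von Willebrand factor, below the filter at 0.836 and 0.954 RPKM in miR and PBS.

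Ligands that act on vessels, among them those of the VEGF, TEK and endoglin receptors, gave no common direction. Of 19 listed ligand genes, which also include Cxcl12, Apln and Jag1 with receptors of their own, 11 were tested, 5 higher and 6 lower in miR, with 0 higher and 2 lower at an unadjusted p below 0.05 and a median log2 difference of -0.06. Vegfa, the ligand of KDR and FLT1, averaged 10.1 RPKM (SD 0.564, n = 6) in miR and 12.0 RPKM (SD 2.21, n = 6) in PBS, a log2 difference of -0.22 (adjusted p = 0.241 in limma). With the nuclear RNA score as covariate its difference was 0.11. Angpt1, the activating ligand of TEK, had 10.6 RPKM (SD 1.05) in miR and 9.36 RPKM (SD 1.74) in PBS, with a log2 difference of 0.19 (adjusted p = 0.294 in limma). Its counterpart Angpt2 lay below the filter, at 0.273 and 0.317 RPKM in miR and PBS. Cxcl12, a chemokine made by vessel cells, had 3.32 RPKM (SD 0.629) in miR and 4.31 RPKM (SD 0.519) in PBS (adjusted p = 0.174 in limma).

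Receptor partners and signalling genes were also divided, with 10 higher and 12 lower of 22 tested, 2 higher and 3 lower at an unadjusted p below 0.05, and a median of -0.02. Acvrl1, the receptor that works with endoglin, averaged 1.91 RPKM (SD 0.157, n = 6) in miR and 2.36 RPKM (SD 0.291, n = 6) in PBS (adjusted p = 0.174 in limma). Ramp2, a co-receptor for adrenomedullin, averaged 5.62 RPKM (SD 0.811) in miR and 6.97 RPKM (SD 1.11) in PBS (adjusted p = 0.187 in limma). Junction partners, most of them shared with other cells of the brain, had 13 higher and 7 lower of 20 tested, 2 higher and 3 lower at an unadjusted p below 0.05, and a median of 0.04. Gja4, the gap junction gene of arterial endothelium, averaged 1.10 RPKM (SD 0.118) in miR and 1.60 RPKM (SD 0.311) in PBS (adjusted p = 0.174 in limma), and Cgn, which encodes cingulin, 3.06 RPKM (SD 0.283) in miR and 3.60 RPKM (SD 0.335) in PBS (adjusted p = 0.184 in limma).

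Among 26 other carriers and uptake genes of the barrier 23 were tested, 7 higher and 16 lower in miR, with 0 higher and 3 lower at an unadjusted p below 0.05 and a median of -0.07. Slc22a8, an organic anion transporter, averaged 2.03 RPKM (SD 0.208, n = 6) in miR and 2.86 RPKM (SD 0.811, n = 6) in PBS (adjusted p = 0.195 in limma), but its log2 difference of -0.37 was 0.02 with the nuclear RNA score as covariate. Cav1, which encodes the caveolar protein caveolin-1, averaged 3.67 RPKM (SD 0.226) in miR and 4.14 RPKM (SD 0.324) in PBS (adjusted p = 0.203 in limma). The glucose carrier Slc2a1 stood at 49.3 RPKM (SD 5.07) in miR and 51.2 RPKM (SD 5.80) in PBS (log2 difference -0.05, adjusted p = 0.726 in limma). The lipid carrier Mfsd2a stood at 6.82 RPKM (SD 0.392) in miR and 7.17 RPKM (SD 0.300) in PBS (log2 difference -0.07, adjusted p = 0.424 in limma), and Slco1a4, an organic anion carrier related to Slco1c1, at 8.73 RPKM (SD 1.26) in miR and 9.59 RPKM (SD 0.910) in PBS (log2 difference -0.14, adjusted p = 0.384 in limma). Of 16 tested genes of the Wnt pathway that induces the barrier, 7 were higher and 9 lower in miR, 1 and 2 of them at an unadjusted p below 0.05, with a median of -0.02. Tspan12, a co-receptor of Frizzled-4, averaged 7.35 RPKM (SD 0.348) in miR and 6.44 RPKM (SD 0.753) in PBS (adjusted p = 0.192 in limma), and Axin2, a target gene of the pathway, 5.31 RPKM (SD 0.717) in miR and 6.32 RPKM (SD 0.809) in PBS (adjusted p = 0.207 in limma). Plvap, a marker of vessels without a barrier, averaged 5.89 RPKM (SD 0.588) in miR and 6.59 RPKM (SD 0.994) in PBS, and its log2 difference of -0.14 was 0.01 after GC correction. Only 4 of 10 markers of such or activated vessels were tested, 2 higher and 2 lower, 1 and 0 of them at an unadjusted p below 0.05 (Vcam1, 7.75 RPKM in miR and 6.85 RPKM in PBS).

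**Figure D5:**
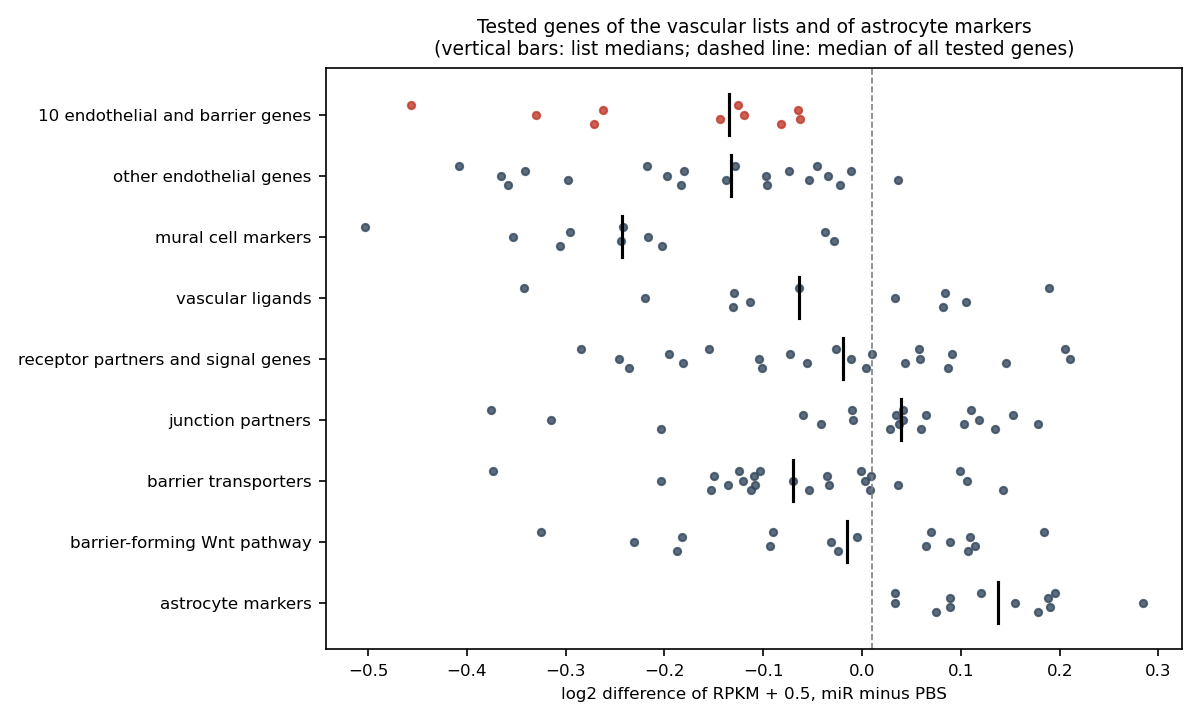
Log2 difference between miR and PBS (x axis) of each tested gene, by list (y axis), with list medians as bars and the median of all tested genes, 0.01, as a dashed line. The medians of the 10 endothelial and barrier genes, at -0.13, the further endothelial genes, at -0.13, and the mural markers, at -0.24, lie left of the line. That of the astrocyte markers, at 0.14, lies right of it.

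Markers of the cells around the vessels were read beside the endothelial genes, with 0 of them at 0 in all libraries. Their counts are a description too, beside 11.1% of all tested genes lower and 9.12% higher in miR at an unadjusted p below 0.05. All 10 tested mural markers (of 16 listed), from the pericytes and smooth muscle cells that ensheathe vessels, had a lower value in miR, 6 of them at an unadjusted p below 0.05, with a median of -0.24. Vtn, a pericyte marker that encodes vitronectin, averaged 11.4 RPKM (SD 0.898, n = 6) in miR and 17.0 RPKM (SD 4.98, n = 6) in PBS (adjusted p = 0.174 in limma). It reached 14.6 to 22.7 RPKM in PBS replicates 8, 9, 10 and 12, the libraries of high Meg3, while PBS replicates 7 and 11, at 10.8 and 12.4 RPKM, lay within the miR range of 10.4 to 12.5 RPKM. The summed level of the mural list was 37.5 to 46.3 RPKM in miR and 41.2 to 60.7 RPKM in PBS. Of the perivascular and meningeal fibroblast markers 7 of 12 were tested, 6 of them lower in miR and 1 higher, 3 and 0 of them at an unadjusted p below 0.05, with a median of -0.23, and their sum was 23.4 to 27.4 RPKM in miR and 26.0 to 29.1 RPKM in PBS. All 12 astrocyte markers had a higher value in miR, 5 of them at an unadjusted p below 0.05, with a median of 0.14 and a sum of 1360 to 1536 RPKM in miR and 1140 to 1429 RPKM in PBS. The water channel gene Aqp4 of astrocyte endfeet averaged 28.6 RPKM (SD 2.26) in miR and 23.6 RPKM (SD 4.09) in PBS (adjusted p = 0.179 in limma). Its low values, 18.2 to 23.6 RPKM, were those of PBS replicates 8, 9, 10 and 12, and PBS replicates 7 and 11, at 26.3 and 29.7 RPKM, lay within the miR range of 25.2 to 30.6 RPKM. Microglial markers summed to 123 to 147 RPKM in miR and 110 to 142 RPKM in PBS, and 8 of 11 had a higher value in miR, 2 of them (Aif1 and Fcgr3) at an unadjusted p below 0.05. Choroid plexus markers summed to 40.1 to 51.3 RPKM in miR and 36.3 to 70.0 RPKM in PBS, with 3 higher and 4 lower of 7 tested. Of that list Enpp2 alone averaged 26.0 RPKM over all 12 libraries. Ttr, Aqp1 and Kcne2 lay below the filter, at 0.375, 0.0748 and 0.0998 RPKM over all 12. The 5 red blood cell genes summed to 35.4 to 86.6 RPKM in miR and 30.5 to 73.6 RPKM in PBS. The 7 nuclear-retained RNA genes were all lower in miR, each at an unadjusted p below 0.05, with a sum of 188 to 259 RPKM in miR and 201 to 909 RPKM in PBS. None of these genes passed the adjusted threshold, and the part of these cells in the endothelial differences was not tested.

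The 10 genes outside the set whose pattern over 12 libraries, with group means removed, was most like the mean of the members were Dgkd (r = 0.89), Mprip (0.86), Lsr (0.84), Ehmt1 (0.83), Socs7 (0.83), Gpr116 (0.82), 1110002L01Rik (0.82), Pld4 (0.82), Sap130 (0.81) and Ppip5k1 (0.80 by the same Pearson correlation). They were picked as the highest among all tested genes, so these values are a description. Gpr116, an adhesion receptor of endothelial cells, and Lsr, a tricellular junction protein, are the 2 among them that stood on the lists above. Gpr116 averaged 3.32 RPKM (SD 0.381, n = 6) in miR and 3.58 RPKM (SD 0.250, n = 6) in PBS (adjusted p = 0.455 in limma), and Lsr 1.71 RPKM (SD 0.239) in miR and 2.27 RPKM (SD 0.527) in PBS (adjusted p = 0.195 in limma). Of the other listed genes, Esam ranked at 19 and Eltd1 at 21 in this order. The mural marker Pdgfrb ranked at 111, with r = 0.68, and the astrocyte marker Aqp4 had r = -0.32.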

How the data were processed

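Stranded libraries of polyadenylated RNA used 250 ng of total RNA of each animal, punched with a 1.0 mm needle from 2 adjacent slices of 300 µm, and were read single-ended on 2 lanes, per the labels' protocols and the series design. The authors deposited 1 table of RPKM values with 30399 transcript rows. The submitters' processing notes name build mm9 and edgeR, without a role. For aligner and counter, nothing is given in the sources used here. Overlapping or near-identical transcripts were not separated.

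For each gene the row of highest mean was kept, which gave 23256 genes (Eng has 3 rows, Pecam1 and Slco1c1 2 each, with nearly equal values). Rows without a symbol, 913 in number, were named through their accession where possible (868). Depth came from the 2 smallest steps, taken as 1 read in either lane, of single-exon olfactory receptor rows. All 331 low values lay within 2% of sums of those steps, a weak check since many of them set the steps. Read counts behind a value are approximate, from RPKM, depth and transcript length, and counting error is the only error they cover.

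Groups were taken from the labels. The series calls the libraries biological replicates, without litters, so p-values cover the spread between these animals alone. The scale was log2(RPKM + 0.5), and the 13273 genes that averaged 1 RPKM or more were tested with limma 3.58.1 in R 4.3.3 (2 groups, no covariate, variance trend, 2-sided, Benjamini-Hochberg over all tested genes, threshold 0.05). The fit was tested before use on simulated data with known differences and independent noise for each gene. It recovered 86% of genes changed by a log2 of 0.5 and 97% of those changed by 1, with 4.69% of calls false. Effects that libraries share over many genes were not part of that simulation. Covariation was computed in Python 3.11.15 after group means were subtracted, with permutation within groups. GC content came from GENCODE M21 transcripts matched by accession (98.5% of tested genes). The nuclear RNA score is a library's mean z-score over 7 nuclear-retained RNA genes. GC correction removed each library's median deviation in 20 bins of GC content. Promoters are RefSeq's, build GRCm38.p6, and are not set against mm9 coordinates.

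The members, lists and tests were chosen with earlier results of these data known. Named genes are the 10 members, the 2 genes of smallest p in each other list, 11 set genes and the 10 most alike, and are printed where a result turns on them. Gja1, Sox17 and Abcg2 stand on 2 lists each. Alternatives were other pseudocounts, filters, scalings and variance models, library weights, GC correction, a nuclear RNA covariate, means over rows, and libraries left out.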

Additional observations from a re-analysis of the deposited data

Results flagged for a closer look

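In a group of 6, a highest or lowest library was taken to stand apart where its gap to the nearest other library, divided by the range of the group, exceeded 0.625 (Dixon's critical value). Of 120 groups of values examined, 7 met this, where chance alone gives about 1 in 20. Among the 10 endothelial and barrier genes, 2 of 20 groups met it. Slco1c1 reached 10.2 RPKM in miR replicate 6, against 8.29 to 8.98 RPKM in the other 5 miR libraries (gap over range 0.627). Abcb1a stood at 3.28 RPKM in miR replicate 3, against 3.94 to 4.20 RPKM in the other 5 (0.718). Outside the 10 genes, Cav1 reached 4.12 RPKM in miR replicate 4 (0.693). In PBS replicate 7, Cav1 reached 4.78 RPKM (0.730), Clic6 7.19 RPKM (0.653) and Enpp2 43.1 RPKM (0.830), each the highest of its group. In the same library Ppip5k1 stood lowest of PBS at 21.5 RPKM (0.709). Clic6 and Enpp2 stand on the choroid plexus list. Ttr of that list lay at 0.350 RPKM in PBS replicate 7, within the PBS range of 0.209 to 0.356 RPKM.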

How the results depend on the processing

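Of the 10 genes, 8 kept a lower value in miR under every alternative run. Pecam1 had a log2 difference of 0.0075 with the nuclear RNA score as covariate and 0.038 without PBS replicates 8, 9, 10 and 12, and Kdr 0.021 with the covariate. The genes past the threshold numbered 0 in all libraries, 3025 with library weights, 3107 without PBS replicates 7 and 11, and 0 to 909 with 1 library left out (909 without PBS replicate 7, 429 without PBS replicate 11, 1 without miR replicate 3). Of the 10 genes, 4, 3 and 0 to 2 were called in the same fits. Leaving out 1 library gave r of 0.74 to 0.87 for Kdr and Flt1, with an adjusted permutation p above 0.05 without miR replicate 4, PBS replicate 10 or PBS replicate 11 (0.0592, 0.0523 and 0.0584). It gave r of 0.47 to 0.78 for Cdh5 and Pecam1, 0.37 to 0.71 for Tek and Tie1, and 0.48 to 0.73 for Cdh5 and Cldn5, which passed without miR replicate 6. Tek and Tie1 had r = 0.69 after GC correction and 0.74 without the 2 libraries farthest from the median of Tek, both past the threshold, and 0.71 without miR replicate 6. Cdh5 and Pecam1 had r = 0.60 after median scaling and 0.57 without the 2 farthest libraries, both short of it, and with 1 library left out it passed only without miR replicate 3 or 6, so that it passed in 5 of 17 alternatives. Transporters minus the other genes differed by -0.050 after GC correction. Among other genes, the sign of the log2 difference turned with the nuclear RNA covariate for Vegfa (0.11), Slc22a8 (0.020), Enpp2 (-0.18), 1110002L01Rik (0.0057), Sap130 (0.017) and Ppip5k1 (0.0085). Without PBS replicates 8, 9, 10 and 12 it turned for Vegfa (0.092), Slc22a8 (0.066), Clic6 (-0.055), Enpp2 (-0.14), Plvap (0.023), 1110002L01Rik (0.024), Sap130 (0.032) and Ppip5k1 (0.012), and after GC correction for Plvap (0.0081). Slc2a1 ranged from -0.090 to 0.0026 with 1 library left out, above 0 without miR replicate 5. The causes were not tested. Medians of pair correlations within groups and after GC correction were added after seeing the data.

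No paired analysis was possible because the labels give neither litter nor injection session by which miR and PBS libraries could be matched. The median log2 difference of all tested genes was 0.0098, and 0.025 after median scaling and 0.023 after quantile normalization. Kdr, Tie1 and Cdh5 rested on about 147 to 394 reads per library, a counting error near 6%, and the differences of Kdr, Tek and Flt1 were smaller than their standard errors.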
